A study of Mus musculus with 8 samples.

Results

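The genes described here are Fxyd2, Fxyd3, Atp1b1 and Atp1b3, 4 of the 53655 gene symbols measured in sorted tuft cells of the mouse small intestine. They encode regulators and beta subunits of the sodium pump and were selected on the measured difference between sorted tuft cell fractions, in which Fxyd2 had the largest rise among well-measured genes where the Chat reporter was active. Tuft cells are sparse chemosensory cells of the gut lining. Cells negative for CD45 and positive for EPCAM and red Il25 signal were sorted from naïve mice into a fraction without green Chat signal (Chat-neg, 4 libraries) and a fraction with it (Chat-pos, 4 libraries). All 8 libraries came from animals of the genotype Il25-RFP/+;Chat-GFP(Tg+), so that the animals of both groups carried both reporters and the Chat reporter was a transgene. The labels used here do not tell the age or number of the animals or which libraries shared one, and p-values therefore measure the spread between libraries, which may in part be technical.

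The sodium pump, or Na,K-ATPase, is a P-type ATPase that moves sodium out of the cell and potassium in, at the cost of ATP. Its alpha subunit carries the catalytic and ion-binding sites, its glycosylated beta subunit is needed for folding and delivery to the plasma membrane, and a small single-span FXYD protein can bind the complex and tune its affinity for ions. In most epithelia of the gut the pump sits in the basolateral membrane, where the sodium gradient it makes drives absorption and secretion.

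FXYD proteins are named for a short peptide motif that precedes their membrane span. The coding sequences of both FXYD genes described here are shown because that motif is what makes them family members, and because they differ in length around it. Fxyd2 encodes the gamma subunit of the pump, best known from the kidney tubule, and Fxyd3 a family member known from epithelia such as stomach and colon. The sequences are those of the principal transcripts of GENCODE M21 on GRCm38, 5′ to 3′ from the start codon to the stop codon, and the capitals mark the codons of the FXYD motif.
Fxyd2: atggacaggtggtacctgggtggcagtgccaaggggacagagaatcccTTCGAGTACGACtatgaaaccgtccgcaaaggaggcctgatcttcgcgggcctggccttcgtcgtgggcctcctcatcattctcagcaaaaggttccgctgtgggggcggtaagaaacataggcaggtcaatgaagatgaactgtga
Fxyd3: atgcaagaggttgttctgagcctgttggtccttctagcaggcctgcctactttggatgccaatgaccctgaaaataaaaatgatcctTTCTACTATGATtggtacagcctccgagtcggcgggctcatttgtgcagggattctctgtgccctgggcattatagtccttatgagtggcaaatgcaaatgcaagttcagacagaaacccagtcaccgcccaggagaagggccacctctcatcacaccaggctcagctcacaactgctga
The coding sequence of Fxyd2 has 195 bases and its motif lies at bases 49 to 60, counted from 1 at the start codon. That of Fxyd3 has 267 bases, with the motif at bases 88 to 99. The coding exons of Fxyd2 lie on the plus strand of chromosome 9 between 45403282 and 45409724, and those of Fxyd3 on the minus strand of chromosome 7 between 31070704 and 31073621. Fxyd2 lies 3509 bases downstream of the end of its relative Fxyd6 on the same strand, while Fxyd3 lies in a cluster on chromosome 7 with Fxyd1, Fxyd5 and Fxyd7. Atp1b1 occupies 164437109 to 164458355 on the minus strand of chromosome 1, and Atp1b3 96332655 to 96364442 on the minus strand of chromosome 9.

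Counts in named genes ran from 87642 to 1176880 in Chat-neg and from 1757401 to 2541955 in Chat-pos, with Chat-neg replicate 1 the shallowest library. Rows without a gene name, which were left out, held 67.8% to 88.4% of all counts in Chat-neg libraries and 58.6% to 64.6% in Chat-pos libraries, ranges that do not overlap, and their part in the differences between the groups was not tested. Chat was higher in the green fraction (log2 difference 1.46 ± 0.21 SE, adjusted p = 6.28e-05 by edgeR, with its quasi-likelihood test and Benjamini-Hochberg's adjustment), as was Il25 (1.12 ± 0.26, edgeR adjusted p = 0.00884). All 14 tuft cell markers were detected, with a summed level of 10780 to 18240 CPM (counts per 1000000 counts in tested genes, after TMM scaling) in Chat-neg and 23540 to 24830 CPM in Chat-pos. Sh2d6 was the most abundant of them, at 4235 ± 1052 and 8071 ± 379 CPM (SD, n = 4 each). Chat itself was present in both fractions, at 101 to 150 CPM in Chat-neg libraries and 290 to 361 CPM in Chat-pos libraries. Markers of other cell types were present too, and the leading genes named for each are those with the highest mean over all 8 libraries. Summed enterocyte markers (12 of 12 detected, led by Fabp1 and Apoa1) ran from 21870 to 46030 CPM in Chat-neg and from 33740 to 55330 CPM in Chat-pos. Paneth cell markers (10 of 11 had a row of counts and all 10 were detected, led by Defa24 and Reg3g) stood at 61770 and 36580 CPM in Chat-pos replicates 2 and 3. In Chat-pos replicates 1 and 4 they stood at 898 and 2293 CPM. Chat-neg replicates 2 and 3 were also the higher ones of their group, at 6761 and 6551 CPM. Chat-neg replicates 1 and 4 held 2152 and 1638 CPM. Goblet cell markers (8 of 8, led by Zg16 and Tff3) ran from 512 to 5533 CPM in Chat-neg and from 307 to 1573 CPM in Chat-pos. T lymphocyte markers (10 of 10, led by Gzma and Cd3g) ran from 181 to 371 CPM in Chat-neg. In Chat-pos they stood at 299 CPM in replicate 2 and at 6.22 to 10.4 CPM in the other libraries, with Cd8b1 at 0 in all 4. Stem cell markers (6 of 6, led by Olfm4 and Slc12a2) ran from 130.3 to 1073 CPM and from 141 to 1162 CPM, and enteroendocrine markers (10 of 10, led by Sct and Chgb) from 582 to 1406 CPM and from 1218 to 1929 CPM, with Chgb at 88.7 ± 171 and 1.18 ± 1.37 CPM (SD, n = 4 each). Other immune markers (8 of 8, led by Lyz2 and Adgre1) reached at most 46.5 CPM, and stromal markers (8 of 8, led by Pecam1 and Col1a1) at most 12.7 CPM, in any library.

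Fxyd2 was low in every Chat-neg library and higher in every Chat-pos library, by the least in replicate 4. It rested on 2, 10, 9 and 14 counts in Chat-neg replicates 1 to 4, or 23.3, 12.7, 7.77 and 22.5 CPM. In Chat-pos replicates 1 to 4 it rested on 232, 372, 200 and 114 counts, or 144, 167, 94.5 and 48.0 CPM. The lowest Chat-pos library, replicate 4, thus stood above the highest Chat-neg library, and the groups did not overlap. That Chat-neg library, replicate 1, held only 2 counts of Fxyd2, with an exact 95% Poisson interval of 2.82 to 84.0 CPM that covers the level of Chat-pos replicate 4. Means were 16.6 ± 7.57 CPM in Chat-neg and 113 ± 53.0 CPM in Chat-pos (SD, n = 4 each), and the fitted log2 difference was 3.01 ± 0.47 (SE), an 8.08-fold difference. Because this contrast chose the gene, the difference is given as a description and without a test. The next largest rises among genes called by edgeR, with a mean of at least 10 CPM and groups that did not overlap, were those of Tnc (2.60) and Upk1a (2.46). In sorted bulk RNA, fewer cells that hold a transcript and less of it per cell cannot be told apart.

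The level of Fxyd2 also differed widely among the Chat-pos libraries themselves. Its SD over these 4 libraries, 53.0 CPM, was 7.00 times the 7.57 CPM that counting error alone would give, and its coefficient of variation of 46.8% compares with a median of 23.8% over all genes tested. Exact 95% Poisson intervals, which cover counting error only, ran from 150.1 to 185 CPM in replicate 2 and from 39.6 to 57.6 CPM in replicate 4. The libraries rich in Paneth cell transcripts held the highest and the third highest level, and the library with T lymphocyte transcripts the highest. Whether these other cells bear on the level of Fxyd2 was not tested. Leaving out both Paneth-rich libraries, an alternative added after seeing the data, gave a log2 difference of 2.88 ± 0.46 (SE). In Chat-neg the SD of 7.57 CPM was below the 9.08 CPM expected from counting, to which replicate 1, with 2 counts, added the most. This comparison therefore cannot decide whether the deeper Chat-neg libraries differed. Their exact 95% Poisson intervals ran from 3.55 to 14.75 CPM in replicate 3 and from 12.28 to 37.69 CPM in replicate 4.

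Fxyd3 was a minor transcript in both fractions. Chat-neg libraries held 0, 7, 15 and 9 counts of it, Chat-pos libraries 10, 28, 20 and 15. These corresponded to 0, 8.92, 12.9 and 14.4 CPM and to 6.22, 12.5, 9.45 and 6.31 CPM, so the groups overlapped. The count of 0 in Chat-neg replicate 1 has an exact 95% Poisson interval of up to 42.9 CPM, more than any other library held. Its fitted log2 difference was -0.37 ± 0.50 (SE), smaller than its error. Fxyd2 made up 37.5% to 100% of the counts of both FXYD genes in Chat-neg, where these rested on 2 to 24 counts, and 88.4% to 95.9% in Chat-pos. Per kilobase of the principal transcripts, its share was 73.3% to 100% in Chat-neg and 97.2% to 99.1% in Chat-pos. That share depends on the transcript taken for Fxyd3. Fxyd3 shares exon sequence with Lgi4, which had 1 count in all libraries together.

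Atp1b1, the beta subunit found in most epithelia, which also takes part in adhesion between neighbouring cells, was the most abundant of the 4 transcripts. In replicate order, its level was 349, 390, 483 and 319 CPM in Chat-neg libraries and 560, 547, 525 and 597 CPM in Chat-pos libraries. Every Chat-pos library stood above every Chat-neg library, the nearest pair being the libraries numbered 3. The exact 95% Poisson intervals of that pair overlapped, at 443.4 to 524.3 CPM in Chat-neg and 494.1 to 556.3 CPM in Chat-pos. Means were 385 ± 71.1 and 557 ± 30.2 CPM (SD, n = 4 each), with a fitted log2 difference of 0.52 ± 0.20 (SE), or 1.44-fold. Within Chat-pos its coefficient of variation was 5.41%, against 46.8% for Fxyd2. Summed tuft cell markers separated the groups in the same direction, at 10780 to 18240 CPM in Chat-neg and 23540 to 24830 CPM in Chat-pos. Summed enterocyte markers were higher than those of tuft cells in every library. They overlapped between the groups, at 21870 to 46030 CPM in Chat-neg and 33740 to 55330 CPM in Chat-pos. In Chat-pos they fell from replicate 4 to 1, 2 and 3, which was also the order of Atp1b1. In Chat-neg, replicate 4 held the highest enterocyte sum and the lowest level of Atp1b1. Whether a different share of tuft cell or enterocyte RNA bears on the difference in Atp1b1 was not tested. Atp1b1 shares exon sequence with Nme7, and the libraries do not mark strand, so that reads from the shared part cannot be assigned. Nme7 stood at 16.7 ± 12.6 and 18.0 ± 3.64 CPM.

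Atp1b3, a second beta subunit of wide tissue distribution, was present at a lower level and did not separate the fractions. It stood at 11.6, 63.7, 69.1 and 51.3 CPM in Chat-neg and at 47.3, 40.3, 52.5 and 41.2 CPM in Chat-pos. The lowest of these, in Chat-neg replicate 1, was a single count, with an exact 95% Poisson interval of 0.295 to 64.8 CPM. Among the remaining Chat-neg libraries the range was 51.3 to 69.1 CPM, which overlapped with Chat-pos in replicate 4 of Chat-neg and replicate 3 of Chat-pos. The fitted log2 difference was -0.34 ± 0.26 (SE), and -0.44 ± 0.22 (SE) without Chat-neg replicate 1. In Chat-pos its SD of 5.67 CPM was close to the 4.73 CPM expected from counting. Of the counts of both beta genes, Atp1b3 held, in replicate order, 3.23%, 14.0%, 12.5% and 13.9% in Chat-neg libraries and 7.79%, 6.86%, 9.09% and 6.46% in Chat-pos libraries. The exact 95% binomial interval of the first of these shares, 1 of 31 counts, was 0.0816% to 16.7%.

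All 4 genes passed the filter on low counts. Of the 4 genes, 2 (Fxyd2 and Atp1b1) had all Chat-pos libraries above all Chat-neg libraries. Among the 8919 genes tested the share was 8.58% in that direction and 5.42% in the opposite one. Since the contrast itself picked the genes, nothing is read from this count. The plot of CPM by library shows the 4 genes side by side.

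**Figure D1:**
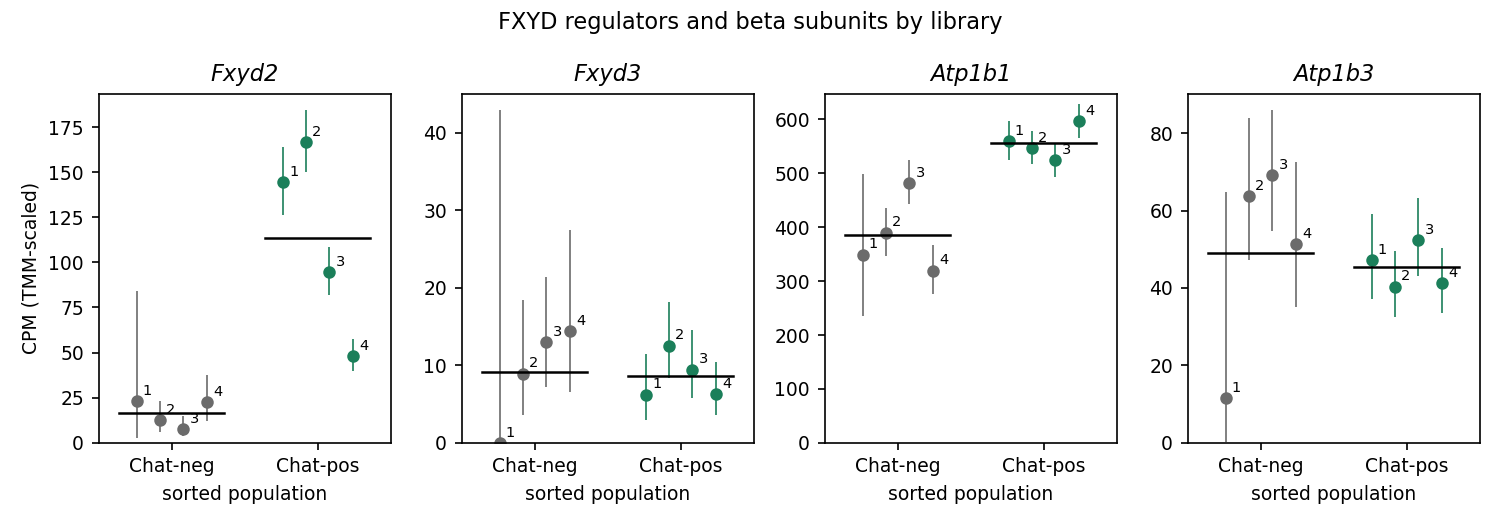
CPM (TMM-scaled) of Fxyd2, Fxyd3, Atp1b1 and Atp1b3 in each Chat-neg and Chat-pos library, numbered by replicate, with exact 95% Poisson intervals as thin bars and group means as black lines. Fxyd2 runs from 7.77 to 23.3 CPM in Chat-neg and from 48.0 to 167 CPM in Chat-pos, Atp1b1 separates by a smaller step, and Fxyd3 and Atp1b3 overlap between the groups.

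**Figure D2:**
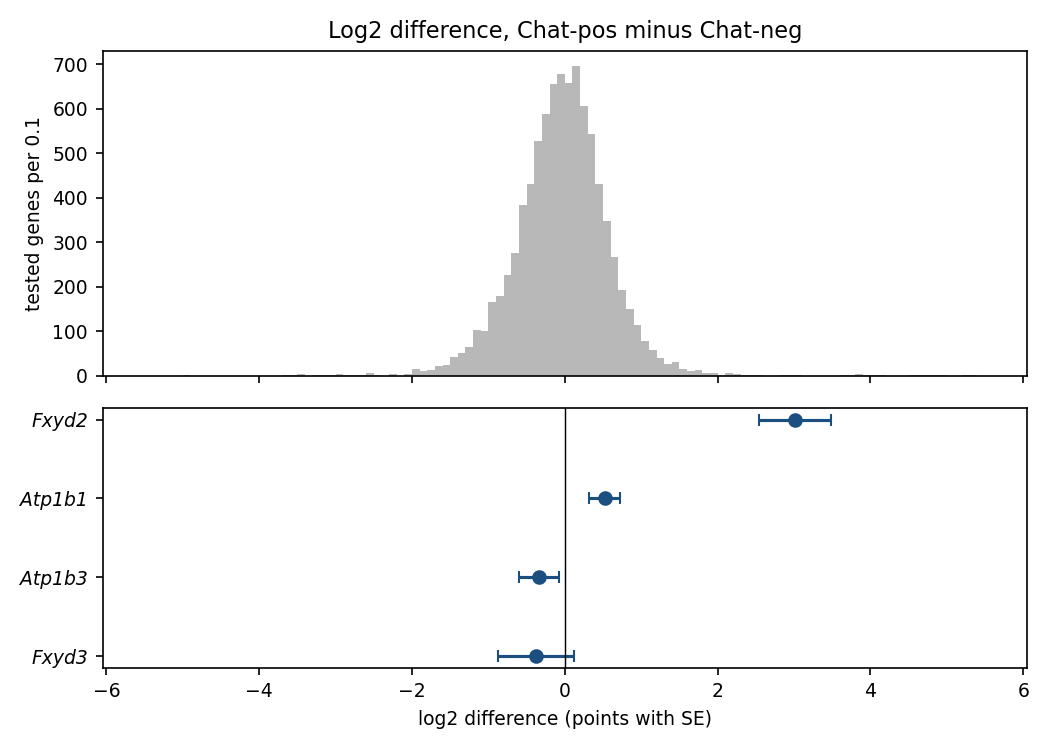
Upper panel, the number of tested genes per 0.1 of log2 difference between Chat-pos and Chat-neg. Lower panel, the fitted log2 difference with its SE for the FXYD and beta subunit genes, from Fxyd3 at -0.37 to Fxyd2 at 3.01; over all genes the median is -0.02.

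A further 11 genes of the family, which are the remaining beta subunits and FXYD genes, a testis-type alpha subunit and the related proton pumps, were too scarce to test. Fxyd5, which encodes dysadherin, reached the highest mean of them over all libraries, at 4.83 ± 4.53 CPM in Chat-neg and 6.83 ± 6.31 CPM in Chat-pos (SD, n = 4 each) from 18 and 57 counts. Of the 57 counts, 35 fell in Chat-pos replicate 2 (15.7 CPM), the library with T lymphocyte transcripts. Fxyd6, the neighbour of Fxyd2 on chromosome 9, had 5 counts over the Chat-neg libraries and 8 over the Chat-pos libraries, against 35 and 918 for Fxyd2. Fxyd1, Fxyd4 and Fxyd7 had 1 to 3 counts over all libraries. Atp1a4, the alpha subunit known from sperm, had 1 and 12 counts. Atp1b2 had 2 and 9 counts and Atp1b4 6 and 2. Of the related proton pump genes Atp4b had none, while Atp4a had 7 and 6 counts and Atp12a 7 and 16. The exact 95% Poisson interval of Atp4b reached 42.9 CPM in Chat-neg replicate 1 and 2.295 CPM in the shallowest Chat-pos library.

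Levels of different genes were compared per kilobase of the principal transcript. In Chat-pos, Atp1b1 stood at 216 ± 11.7 CPM per kilobase and Fxyd2 at 179 ± 83.9 (SD, n = 4 each), and these neighbours did not differ beyond their spread, Atp1b1 being the higher in 2 of 4 libraries. Atp1b3 followed at 22.7 ± 2.84 and Fxyd3 at 2.98 ± 1.04 CPM per kilobase, each below the one before in 4 of 4 libraries. In Chat-neg the order was Atp1b1 at 149 ± 27.5 and then Fxyd2 at 26.2 ± 11.97 and Atp1b3 at 24.5 ± 13.0 CPM per kilobase, which overlapped with each other. Fxyd3 came last at 3.14 ± 2.24 CPM per kilobase. The place of Fxyd3 depends on the transcript, since its annotated coding transcripts run from 439 to 2894 bases and the shorter one gives 19.7 ± 6.86 CPM per kilobase in Chat-pos. Over all annotated exons of a gene in place of the principal transcript, Fxyd2 stood at 28.3 ± 13.2 and Atp1b1 at 181 ± 9.79 CPM per kilobase in Chat-pos, so that the place of Fxyd2 beside Atp1b1 rests on its short principal transcript.

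**Figure D3:**
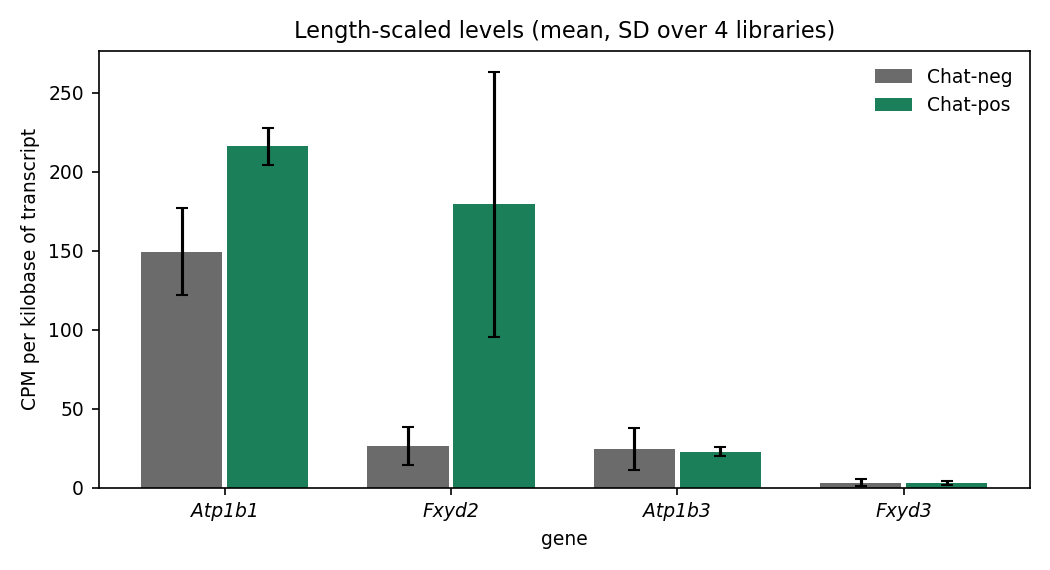
Mean level in CPM per kilobase of the principal transcript for the 4 genes, with bars for the SD over 4 libraries, in Chat-neg and Chat-pos. Atp1b1 and Fxyd2 are the tallest in Chat-pos, at 216 and 179, while Atp1b3 is at 24.5 and 22.7 CPM per kilobase in Chat-neg and Chat-pos.

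The profile of each gene over the 8 libraries was compared with those of 8006 tested genes whose mean reached 10 CPM, by the root mean square difference of log2 CPM after each gene was centred on its own mean. Closest to Fxyd2 were Upk1a, a uroplakin, at 0.65, Gnat3, the taste G protein gustducin, at 0.72, and Tnc, tenascin C, at 0.73, where the median gene lay at 1.56. Without Chat-neg replicate 1 these were again the closest 3. Within Chat-pos they did not share the order of Fxyd2, which was lowest in replicate 4. Upk1a and Gnat3 were lowest in Chat-pos replicate 3, and Tnc in Chat-pos replicate 1. Upk1a stood at 33.6 ± 9.11 and 167 ± 37.0 CPM, and Gnat3 at 72.0 ± 7.42 and 343 ± 50.6 CPM in Chat-neg and Chat-pos. Atp1b1 was followed most closely by Krit1 (0.06), Ndufaf3 (0.09) and Lin7c (0.11), with a median gene at 0.57. Krit1, a protein of endothelial junctions, stood at 53.0 ± 8.03 and 76.0 ± 3.97 CPM and stayed closest without Chat-neg replicate 1. Nearest to Fxyd3 were Polr3b (0.20), Wwc2 (0.26) and Ephb4 (0.27), and nearest to Atp1b3 were Lonp2, a peroxisomal protease, Arpc1a and Psmd12 (0.16 to 0.17). Without Chat-neg replicate 1, where Fxyd3 had 0 counts and Atp1b3 had 1, these genes fell to ranks 17 to 153 for Fxyd3 and 20 to 92 for Atp1b3. The measure includes the difference between the groups, and describes likeness of level over these libraries only.

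In 3 lists of genes around the pump none passed the test in edgeR, where 3.62% of the 8919 genes tested were called higher and 2.87% lower in Chat-pos. Of 17 genes for pump partners and kinases (ankyrins and spectrins that anchor it, adducins, and kinases that regulate it), 11 were tested and none was called by edgeR. At an unadjusted p under 0.05 there were 0 higher and 2 lower, where 10.9% of all genes tested were higher and 9.88% lower, and DESeq2 and limma-voom called none. The median log2 difference was -0.17, against -0.02 over all genes tested. Sodium entry and potassium exit genes numbered 28, of which 17 were tested. Their median was -0.24 with 4 above and 13 below 0, and none was called by edgeR, with 1 higher and 1 lower at an unadjusted p under 0.05 (10.9% and 9.88% of all genes). DESeq2 called Trpm5, the sodium-permeable channel of the tuft cell taste cascade, higher, and limma-voom called Slc9a3, a sodium-proton exchanger, lower. Trpm5 stood at 1689 ± 282 and 2361 ± 172 CPM (0.48 ± 0.20 SE, edgeR adjusted p = 0.17), and Slc9a3 at 27.6 ± 16.2 and 13.1 ± 9.02 CPM (-1.24 ± 0.44, edgeR adjusted p = 0.1). Trpm5 and Slc9a3 are named because these other tools called them. Of 31 other P-type ATPases, among them pumps for calcium, copper and lipids, 19 were tested, and none was called by edgeR, DESeq2 or limma-voom. At an unadjusted p under 0.05 there were 0 higher and 3 lower (10.9% and 9.88% of all genes), and log2 differences ran from -0.89 to 0.44 with a median of -0.06.

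**Figure D4:**
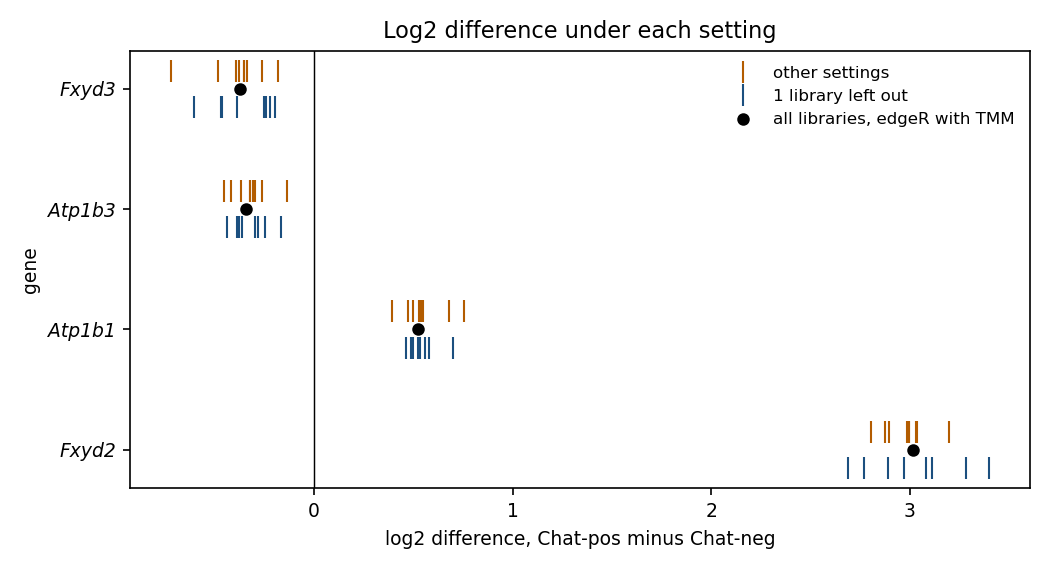
Fitted log2 difference between Chat-pos and Chat-neg for each gene with all libraries (black points), with 1 library left out (blue ticks) and under other scalings, filters and tools, with a replicate block or without both Paneth-rich Chat-pos libraries (orange ticks). Fxyd2 stays between 2.69 and 3.40 and Atp1b1 between 0.40 and 0.76, and Fxyd3 and Atp1b3 stay below 0.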

How the data were processed

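Sorted cells were lysed in SMARTer v4 reagents, and Nextera XT libraries of the amplified cDNA were sequenced single-end for 74 cycles, per the labels' protocols. The authors deposited a table of raw counts by gene symbol, made on GRCm38 per the submitters' processing notes. Which aligner and counting tool were used is not given in the sources used here. By their general chemistry such libraries mark neither strand nor molecules.

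Of 53806 rows, 36 without a gene name, with 67.8% to 88.4% of all counts in Chat-neg and 58.6% to 64.6% in Chat-pos, were left out, and 229 rows that shared 114 symbols were summed. Tests used edgeR 4.0.16 (R 4.3.3) with TMM, filterByExpr, a robust quasi-likelihood model of group alone and a Benjamini-Hochberg threshold of 0.05. CPM are counts per 1000000 TMM-scaled counts of tested genes. SE were taken from the log2 difference and its F statistic. DESeq2 1.42.0 and limma 3.58.1 (voom with quality weights) were alternatives, beside other scalings and filters, a replicate block and leaving out each library. In simulated data of this comparison over the same 8919 genes, edgeR found 15.3% of 2-fold and 75.5% of 4-fold changes, with 6 false calls of 98.

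The genes and lists were chosen with earlier results of these data known. Some genes of the family and of the marker lists are not reported here. Genes named are the 4 chosen, genes of their family, called genes of the other lists, Chat and Il25, up to 2 most abundant markers per cell type and the 3 closest profiles per gene. Any other gene was chosen after seeing its values. Positions and lengths came from GENCODE M21. No pair of libraries within a group was alike within counting noise. Depth limits Chat-neg replicate 1, where 3 counts are 34.9 CPM.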

Additional observations from a re-analysis of the deposited data

Results flagged for a closer look

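Among 32 sets of 4 libraries checked (CPM of each gene, marker sums and depth), 1 held a library far from the others, and chance alone marks about 5% of such sets. Summed T lymphocyte markers stood at 299 CPM in Chat-pos replicate 2, against 6.22 to 10.4 CPM in the other Chat-pos libraries. That library held 167 CPM of Fxyd2 and 547 CPM of Atp1b1.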

How the results depend on the processing

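The log2 differences of Fxyd2, Fxyd3, Atp1b1 and Atp1b3 kept their sign under all alternatives, and Atp1b1 alone moved by more than its spread, to 0.76 with no filter on low counts, where the median of all genes was -0.35. Leaving out 1 library at a time gave 2.69 to 3.40 for Fxyd2, -0.60 to -0.20 for Fxyd3, 0.47 to 0.70 for Atp1b1 and -0.44 to -0.16 for Atp1b3. Total count scaling moved the median of all genes to -0.14, with Fxyd2 at 2.90 and Atp1b1 at 0.40.

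Over all genes, leaving out 1 library gave 138 to 360 higher and 110 to 309 lower genes. The lowest counts, 138 and 110, came from leaving out Chat-neg replicate 2. Leaving out Chat-neg replicate 3 gave 163 lower genes, leaving out Chat-neg replicate 4 gave 124, and for Chat-pos replicate 3 the number was 141. The lower count was 402 with limma-voom and 143 with no filter on low counts. Without both Paneth-rich Chat-pos libraries, an alternative chosen after seeing the data, it was 86. In the list of sodium entry and potassium exit, 1 gene was higher with DESeq2, 1 lower with limma-voom, with no filter on low counts or without both Paneth-rich libraries, and 0 to 2 were lower when 1 library was left out. The cause of these changes was not tested. Deviations of same-numbered libraries correlated by -0.02 to 0.05, which cannot decide whether such libraries shared an animal. Paneth cell markers were highest in replicates 2 and 3 of both groups. Whether replicate numbers pair the libraries is not told by the labels. With the replicate number as a block, Fxyd2 stood at 2.80, Atp1b1 at 0.54, Fxyd3 at -0.26 and Atp1b3 at -0.30.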

Other observations

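Kcnn4, the calcium-activated potassium channel of many epithelia and blood cells, did not pass the filter on low counts when all libraries were used, and was picked out after its values were seen. It stood at 15.9 ± 13.2 CPM in Chat-neg and 3.90 ± 0.924 CPM in Chat-pos (SD, n = 4 each), from 49 and 32 counts. The groups overlapped, with 0 to 28.9 CPM in Chat-neg libraries and 2.525 to 4.48 CPM in Chat-pos libraries. Kcnn4 was called lower with no filter on low counts (log2 difference -2.05, edgeR adjusted p = 0.0203) and without Chat-neg replicate 1 (-2.37, edgeR adjusted p = 0.0053). It was also called lower when any Chat-pos library was left out (edgeR adjusted p = 0.0175 to 0.0277) and without both Paneth-rich Chat-pos libraries (0.0483). Without Chat-neg replicate 2, 3 or 4 it did not pass the filter and was not tested, so the call rests on fits that keep those libraries. T lymphocyte markers were also lower in 3 of 4 Chat-pos libraries, and their part in this difference was not tested.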
